A study of Mus musculus with 15 samples.

Results

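Mitosis is run by a set of genes whose transcripts accumulate as a cell passes from G2 into division. A set of 35 such genes was followed through mouse heart and liver allografts and their controls. The genes were taken by name: chromosome proteins, transcription factors, cyclins and entry kinases, passenger and centromere proteins, spindle checkpoint proteins, the anaphase switch, spindle kinesins and cytokinesis proteins. Of the 35 genes, 34 had a named probe among the 18217 genes named on the array, and Prc1, a microtubule bundler of the central spindle, had none that could be named. Each gene was read from 1 probe, the one with the highest mean signal over all arrays.

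In a resting organ most cells stand outside the cycle. When cells divide, the transcription factors B-Myb (Mybl2) and FoxM1 switch on the G2 and mitosis genes, cyclin B with its kinase Cdk1 drives entry, the checkpoint holds the sister chromatids together until every kinetochore is attached, and the anaphase-promoting complex then marks cyclin B and securin for destruction. Adult heart muscle cells and hepatocytes divide rarely, although hepatocytes can re-enter the cycle after loss of liver mass, and activated lymphocytes divide fast. A tissue sample pools all of these cells.

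The data were 15 arrays in 5 groups of 3, each array carrying Cy3-labelled total RNA of 1 tissue sample. In the heart allografts, a heart of a C57BL/10 (B10) male was placed in the abdomen of a CBA recipient of the same sex and was taken on day 5. In the liver allografts, a B10.BR liver replaced the liver of a B10.D2 recipient and was taken on day 5 or on day 8. The mice were male, and no age was given. The controls were 3 heart and 3 liver samples; the labels and methods call them normal tissue while other parts of the study speak of grafts between mice of the same strain, so which of these they were is unclear, and their strain was not given. The labels do not say whether the arrays of a group came from separate mice; the methods speak of separate animals in their account of quantitative PCR. Adjusted p-values measure the spread between these samples, which may be technical.

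Between 52.5% and 70.4% of probes stood well above background on an array. Liver control 1 was the dimmest array, with a 75th percentile of the processed signal of 87.8 against 157 to 1151 on the other 14 arrays. The other liver controls were the next dimmest, at 157 and 216. Allografts of both organs were at 319 to 652, and heart controls were the brightest, at 935 to 1151. Brightness before normalization thus ran with the control groups. Heart allograft 2 had the lowest share of probes above background among the allografts (56.2%). Heart allografts and heart controls were on 1 slide each, so slide and group cannot be told apart there. In the liver, no slide held both day 5 allografts and controls, so the same holds for that comparison. Day 5 liver allograft 3 shared the slide of the heart allografts. The organs held the RNA their labels name: summed over 10 cardiomyocyte genes, the normalized signal was 956005 to 1520000 in heart and 490 to 1752 in liver samples, and over 7 hepatocyte genes 667613 to 802536 in liver and 71.7 to 744 in heart samples, where Alb, Apoa1 and Ttr were not well above background on any array. T cell markers separated allografts from controls. Their summed normalized signal over 9 genes was 496 to 724 in heart controls and 11921 to 18986 in heart allografts, and 522 to 628 in liver controls, 8145 to 13455 in day 5 and 7160 to 8995 in day 8 liver allografts. Fewer cells of a type and less RNA per cell cannot be told apart in such samples, and the part of infiltrating cells in the values below was not tested.

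Many G2 and mitosis genes are known to carry a shared pair of elements near the start site, and the promoters of the listed genes were searched for that pair. Of the 35 genes, 29 had an entry in the RefSeq promoter table (GRCm38.p6). A pair of short elements was sought on both strands of the 250 bases before the start: the cell cycle genes homology region, read as TTTGAA or TTTAAA, and CCAAT, the box of the factor NF-Y. In the sequences printed here, the last 120 bases before the start site, capitals mark these letters or their reverse complement. Ccnb1 (cyclin B1) lies at chr13:100786487-100786606, minus strand, Cdk1 at chr10:69352913-69353032, minus strand, Cdc20 at chr4:118437344-118437463, minus strand, Ube2c at chr2:164769809-164769928, plus strand, Kif11 at chr19:37376262-37376381, plus strand, and Mybl2 at chr2:163054515-163054634, plus strand.
Ccnb1: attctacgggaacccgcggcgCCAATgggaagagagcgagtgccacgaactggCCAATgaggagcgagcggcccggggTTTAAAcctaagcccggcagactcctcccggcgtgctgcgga
Cdk1: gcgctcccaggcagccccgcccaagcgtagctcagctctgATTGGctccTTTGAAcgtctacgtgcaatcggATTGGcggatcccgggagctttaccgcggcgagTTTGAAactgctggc
Cdc20: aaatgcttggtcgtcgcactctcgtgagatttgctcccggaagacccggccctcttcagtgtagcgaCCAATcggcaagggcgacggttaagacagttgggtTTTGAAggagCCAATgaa
Ube2c: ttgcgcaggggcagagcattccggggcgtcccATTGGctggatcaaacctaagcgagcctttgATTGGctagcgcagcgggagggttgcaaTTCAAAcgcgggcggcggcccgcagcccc
Kif11: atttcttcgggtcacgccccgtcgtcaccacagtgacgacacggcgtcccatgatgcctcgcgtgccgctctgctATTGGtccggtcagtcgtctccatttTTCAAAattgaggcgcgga
Mybl2: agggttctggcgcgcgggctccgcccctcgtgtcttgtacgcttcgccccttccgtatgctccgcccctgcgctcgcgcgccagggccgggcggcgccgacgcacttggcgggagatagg
The first 5 hold both elements, with the homology region nearer to the start than a CCAAT box in Ccnb1, Cdk1, Ube2c and Kif11 and a CCAAT box nearest in Cdc20, and Mybl2 holds neither. Both elements were found in 14 of the 29 promoters (48.3%), against 10.1% of the 27025 genes in the table; the homology region was found in 16 (55.2%, against 28.1%) and CCAAT in 22 (75.9%, against 37.5%). The E2F letters TTTGGCGC or TTTCGCGC were found in 1, that of Cdk1 (3.45%, against 0.759%). Only these exact letters were sought, so E2F sites spelled otherwise would be missed, in Mybl2 as in the others. These are matches of letters, not binding. Of the genes with a probe, 6 of 13 with both elements and 9 of 15 without were called higher in the heart, and 13 of 13 and 14 of 15 in the liver on day 5 and 12 of 13 and 10 of 15 on day 8.

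In the heart, the question was which genes differed between rejecting grafts and controls on day 5. All 18 genes that passed the test were higher in the allografts, of 34 measured, where 13.3% of all 41003 probes were called higher. The median log2 difference over the 34 genes was 1.10, against 0.017 over all probes, and single genes ran from -0.37 ± 0.34 (difference ± SE, as below) for Anln to 2.53 ± 0.19 for Mybl2. In 24 genes all 3 allografts lay above all 3 controls, which held for 29.1% of all probes. Calls here and below are limma's moderated test with Benjamini-Hochberg adjustment over all probes, at 0.05. The fit pools the spread of a gene over all groups, so its SE is the same in heart and liver. In the liver, 33 of 34 genes were called higher on day 5 (8.12% of all probes were), with a median difference of 2.63 against -0.071 over all probes, and 33 genes had all allografts above all controls (12.5% of probes). On day 8, 27 of 34 were called higher (7.05% of probes), the median was 1.86 against -0.082 over all probes, and 32 genes had all allografts above all controls (12.9% of probes). In these 3 comparisons 0 of the 34 genes were called lower, against 15.3%, 7.01% and 4.64% of probes, and 0 had all allografts below all controls, against 25.6%, 18.8% and 18.6%. In all 3 comparisons 15 genes were called: Foxm1, Ccna2, Ccnb2, Plk1, Aurka, Nek2, Aurkb, Birc5, Cenpa, Bub1b, Mad2l1, Cdc20, Ube2c, Espl1 and Kif2c. The day 5 and day 8 livers were set against the same 3 controls. With normexp background correction the medians of the 34 genes were 0.99 in the heart, 1.77 in the day 5 liver and 1.25 in the day 8 liver. With slide as a random block, 11 genes were called in the heart. With the spread taken from the 6 arrays of a comparison alone, 20 genes were called in the heart. In the liver that fit called 23 on day 5 and 9 on day 8.

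**Figure D1:**
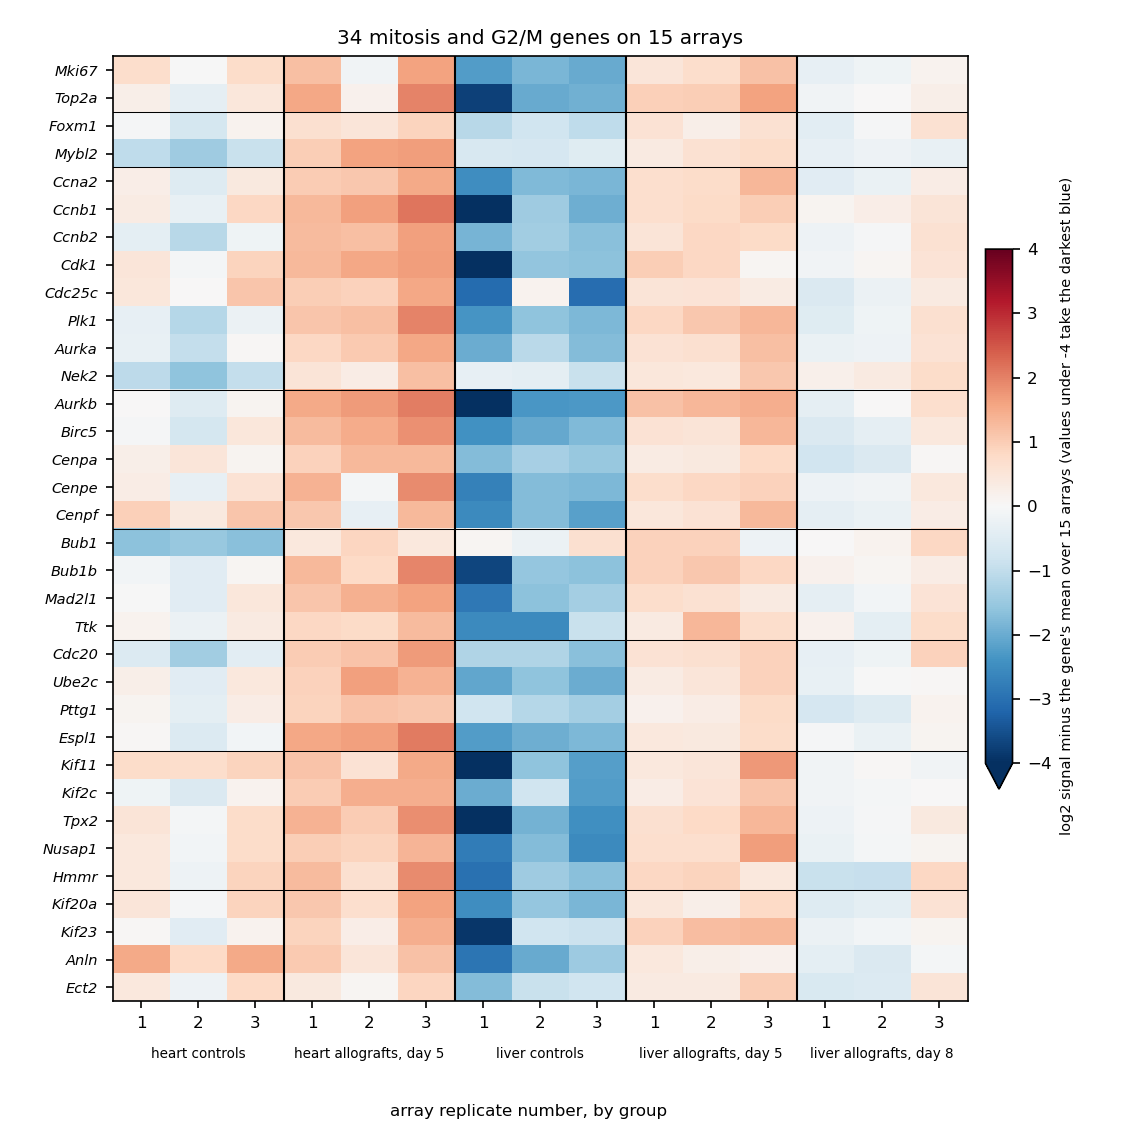
Normalized log2 signal of the 34 genes (rows, in the order of their roles, set apart by lines) on the 15 arrays (columns, 3 per group), with each gene's mean over the 15 arrays subtracted; red is above and blue below that mean. Liver controls are the bluest columns, darkest on array 1, while heart controls lie near the mean for most genes; Bub1 has its lowest values in heart controls.

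**Figure D2:**
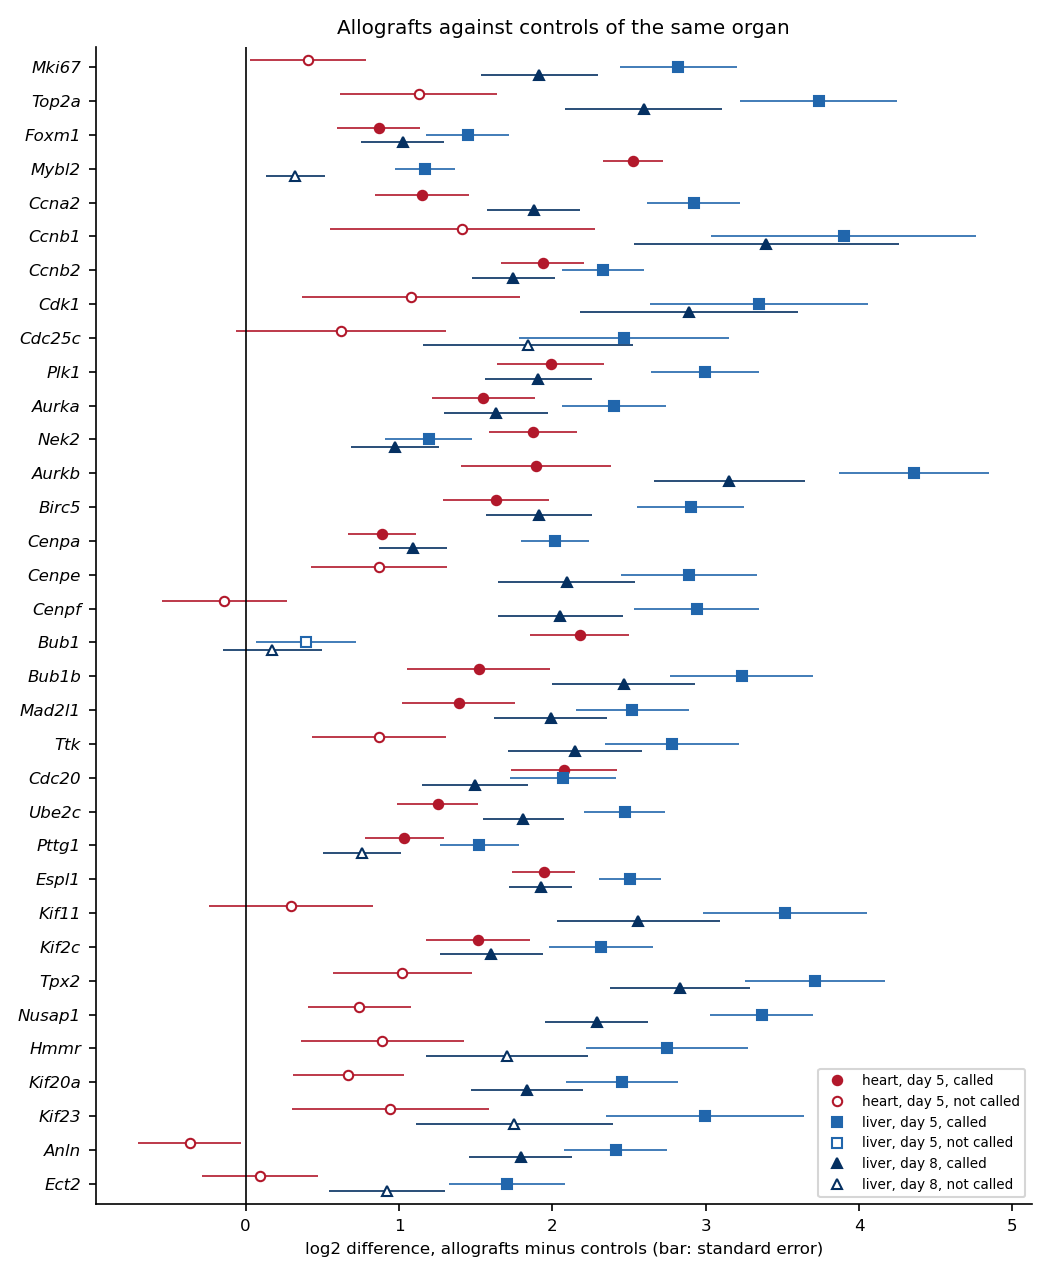
Difference between allografts and controls of the same organ for each gene, on the log2 scale (horizontal axis), with its standard error; filled symbols passed the test. The liver differences on day 5 lie to the right of the heart differences in 30 of 34 genes; Mybl2, Nek2, Bub1 and Cdc20 are the exceptions.

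The genes varied together within a group. Among heart controls, array 2 was the lowest for 32 of the 34 genes and array 3 the highest for 31, where array 2 was the lowest for 29.0% and array 3 the highest for 26.2% of all probes. Heart allograft 3 was the highest of its group for 31 genes, and liver day 8 allograft 3, which was on another slide than the other 2, for 32 (37.1%). Liver control 1 was the lowest of its group for 27 genes (32.3%). In heart allograft 2, by contrast, 18 genes had the lowest and 3 the highest value of the group, against 33.0% and 51.5% of all probes. That array was below both other allografts by over 1 log2 unit for Mki67, Top2a, Cenpe and Cenpf.

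Both chromosome proteins were higher in the liver allografts. Mki67 encodes Ki-67, the coat protein of mitotic chromosomes used as a proliferation marker. Its normalized log2 signals were 8.25, 8.67 and 8.47 in liver controls, 10.99, 11.21 and 11.65 in day 5 and 10.18, 10.32 and 10.64 in day 8 allografts. All 6 liver allografts lay above the controls, and the difference was 2.82 ± 0.38 on day 5 (adjusted p = 5.07e-04) and 1.92 ± 0.38 on day 8 (adjusted p = 0.00685). In the heart, Mki67 was 11.20, 10.50 and 11.22 in controls and 11.69, 10.36 and 12.09 in allografts. Allograft 2 lay below every control and the other 2 above them, and the difference of 0.41 ± 0.38 did not pass the test (adjusted p = 0.476). Top2a is topoisomerase II alpha, which untangles the sister chromatids. It measured 3.84, 5.56 and 5.66 in liver controls, 8.52, 8.56 and 9.20 on day 5 and 7.45, 7.60 and 7.81 on day 8. The liver groups did not overlap with their controls, at 3.74 ± 0.51 on day 5 (adjusted p = 5.85e-04) and 2.60 ± 0.51 on day 8 (adjusted p = 0.00677), and without the dim liver control 1 these values were 3.15 and 2.01. Heart controls were at 7.81, 7.22 and 8.02 and heart allografts at 9.12, 7.76 and 9.55. Here allograft 2 lay among the controls, and the difference of 1.13 ± 0.51 was not called (adjusted p = 0.122). Without heart allograft 2, 21 genes were called in the heart in place of 18; Mki67 (0.92, adjusted p = 0.0292), Top2a (1.65, adjusted p = 0.0268) and Cenpe (1.44, adjusted p = 0.0098) were the 3 that were added.

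The 2 transcription factors were called higher in heart and in liver on day 5. Mybl2 had the largest heart difference of the 34 genes. Its log2 signals were 5.80, 5.40 and 5.92 in heart controls and 7.81, 8.42 and 8.47 in heart allografts. The groups were well apart, by 2.53 ± 0.19, a 5.76-fold difference (adjusted p = 3.13e-06). Liver controls were at 6.19, 6.14 and 6.32, day 5 allografts at 7.17, 7.42 and 7.56 and day 8 allografts at 6.47, 6.61 and 6.53. Day 5 was above the controls by 1.17 ± 0.19 (adjusted p = 0.00185), and on day 8 all 3 arrays were still above the controls but by only 0.32 ± 0.19, which was not called (adjusted p = 0.302). Foxm1, the forkhead factor that acts with B-Myb, was at 6.18, 5.51 and 6.35 in heart controls and 6.84, 6.70 and 7.10 in heart allografts. In the liver it was at 5.11, 5.41 and 5.18 in controls, 6.78, 6.44 and 6.83 on day 5 and 5.79, 6.17 and 6.82 on day 8. No group overlapped with its controls. The differences were 0.87 ± 0.27 in the heart (adjusted p = 0.0302), 1.45 ± 0.27 (adjusted p = 0.00385) and 1.02 ± 0.27 (adjusted p = 0.0292). The heart call of Foxm1 was lost without heart control 1 (adjusted p = 0.05) or 2 (0.129) or without heart allograft 1 (0.0571) or 3 (0.103), and its day 8 call without liver control 1 (0.0806) or day 8 allograft 2 (0.0745) or 3 (0.0969).

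Of the 8 cyclins and entry kinases, 5 were called higher in the heart, all 8 in the liver on day 5 and 7 on day 8. Ccnb2, cyclin B2, was at 9.93, 9.21 and 10.16 in heart controls and 11.60, 11.52 and 11.98 in allografts, and at 8.48, 8.94 and 8.66 in liver controls, 10.84, 11.14 and 11.09 on day 5 and 10.12, 10.27 and 10.94 on day 8. Every allograft of either organ was above its controls. The differences were 1.94 ± 0.27 in the heart (adjusted p = 2.63e-04), 2.33 ± 0.27 on day 5 (adjusted p = 1.70e-04) and 1.75 ± 0.27 on day 8 in the liver (adjusted p = 0.00142). Ccna2, cyclin A2, which acts in S phase and G2, was at 9.84, 9.06 and 9.97 in heart controls and 10.58, 10.66 and 11.08 in allografts. Liver controls were at 7.10, 7.82 and 7.75, with 10.23, 10.31 and 10.90 on day 5 and 9.12, 9.32 and 9.87 on day 8. The groups were again apart, by 1.15 ± 0.30 in the heart (adjusted p = 0.0138), 2.92 ± 0.30 in the day 5 liver (adjusted p = 8.22e-05) and 1.88 ± 0.30 in the day 8 liver (adjusted p = 0.00196). The heart call of Ccna2 was lost without heart allograft 3 (adjusted p = 0.0575) or heart control 2 (adjusted p = 0.0619).

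Among the other 6 of this group, Plk1 (polo-like kinase 1, which acts from centrosome maturation to cytokinesis) differed by 1.99 ± 0.35 in the heart, 3.00 ± 0.35 in the day 5 liver and 1.91 ± 0.35 in the day 8 liver. Aurka, Aurora A of the spindle poles, differed by 1.55 ± 0.34, 2.40 ± 0.34 and 1.63 ± 0.34 in the same order, and Nek2, a kinase of centrosome separation, by 1.87 ± 0.29, 1.19 ± 0.29 and 0.98 ± 0.29. All of these were called. The calls of Nek2 in the liver were weak: that of day 5 was lost without day 5 allograft 3 (0.97, adjusted p = 0.0587), and that of day 8 without any 1 of the 6 arrays (adjusted p = 0.0638 to 0.144). Ccnb1, cyclin B1, and its kinase partner Cdk1 were not called in the heart, at 1.41 ± 0.86 and 1.08 ± 0.71, although in both genes all 3 allografts were above all 3 controls. These SEs pool the spread of all groups, liver controls included, and are not the spread of the heart arrays alone. The SD of Ccnb1 was 0.42 in heart allografts and 0.57 in heart controls, against 2.45 in liver controls. That of Cdk1 was 0.19 and 0.49, against 1.95. In the liver Ccnb1 and Cdk1 were called, at 3.90 ± 0.86 and 3.35 ± 0.71 on day 5 and 3.40 ± 0.86 and 2.89 ± 0.71 on day 8. Liver control 1 was not well above background for either; without it the day 5 differences were 2.49 and 2.22 and the day 8 differences 1.99 and 1.76, and leaving out any day 8 allograft ended both day 8 calls (adjusted p = 0.0664, 0.0756 and 0.0703 for Ccnb1 and 0.053, 0.0642 and 0.069 for Cdk1, without array 1, 2 and 3). Cdc25c, the phosphatase that activates Cdk1, was called only in the day 5 liver (2.47 ± 0.68, adjusted p = 0.0316), and leaving out any array but liver control 2 ended that call (adjusted p = 0.0651 to 0.115). Liver control 2 was the only liver control well above background for Cdc25c, so that the fitted differences without that array, 3.54 on day 5 and 2.91 on day 8, are not exact.

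All 5 passenger and centromere genes were called higher in both liver comparisons, and 3 of 5 in the heart. Birc5 encodes survivin, a subunit of the chromosomal passenger complex. It was at 11.47, 10.80 and 11.95 in heart controls and 12.76, 13.00 and 13.34 in heart allografts, and at 9.08, 9.45 and 9.73 in liver controls, 12.09, 12.03 and 12.84 on day 5 and 10.92, 11.16 and 11.92 on day 8. No allograft fell among its controls, and the differences were 1.63 ± 0.35 in the heart (adjusted p = 0.0041), 2.90 ± 0.35 on day 5 (adjusted p = 2.22e-04) and 1.91 ± 0.35 on day 8 (adjusted p = 0.00403). Cenpe is a kinetochore motor that carries chromosomes to the spindle equator. It measured 10.32, 9.68 and 10.60 in heart controls and 11.39, 9.92 and 11.90 in heart allografts. Allograft 2 was again within the controls, and the difference of 0.87 ± 0.44 was not called (adjusted p = 0.169). In the liver, Cenpe was at 7.33, 8.27 and 8.23 in controls, 10.71, 10.85 and 10.94 on day 5 and 9.80, 9.88 and 10.42 on day 8. The liver groups did not overlap with the controls, by 2.89 ± 0.44 (adjusted p = 0.00119) and 2.09 ± 0.44 (adjusted p = 0.0101).

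Aurkb, Aurora B, the kinase of the passenger complex, had a fitted day 5 liver difference of 4.36 ± 0.49. It was not well above background in any liver control, so that the fold is a bound: day 5 allografts were at least 9.69-fold and day 8 allografts at least 4.20-fold higher than controls, taken at the lowest signal that counts as well above background on each array (adjusted p = 1.41e-04 and 0.00152). Without liver control 1 the fitted differences of Aurkb were 3.63 and 2.42. In the heart Aurkb differed by 1.89 ± 0.49 and was called, but not without heart control 2 (1.70, adjusted p = 0.0512). Cenpa, the histone H3 variant of the centromere, differed by 0.89 ± 0.22 in the heart, 2.02 ± 0.22 and 1.09 ± 0.22 in the liver and was called each time. Cenpf, a large kinetochore protein, was called in the liver only (2.94 ± 0.41 and 2.05 ± 0.41), with -0.14 ± 0.41 in the heart.

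Of the 4 checkpoint genes 3 were called in each comparison: Bub1b and Mad2l1 each time, with Bub1 in the heart and Ttk in the liver. Mad2l1, the Mad2 inhibitor of the anaphase-promoting complex, was at 7.81, 7.39 and 8.27 in heart controls and 8.95, 9.25 and 9.45 in allografts. Liver controls were at 4.96, 6.18 and 6.47, day 5 allografts at 8.53, 8.44 and 8.20 and day 8 allografts at 7.49, 7.72 and 8.38. All allografts were above their controls, by 1.39 ± 0.37 in the heart (adjusted p = 0.0139), 2.52 ± 0.37 on day 5 (adjusted p = 8.74e-04) and 1.99 ± 0.37 on day 8 (adjusted p = 0.00458). The heart call was lost without heart allograft 3 (1.27, adjusted p = 0.0518) or heart control 2 (1.17, adjusted p = 0.0613). Bub1b, the checkpoint kinase BubR1, differed by 1.52 ± 0.47 in the heart and by 3.24 ± 0.47 and 2.47 ± 0.47 in the liver (2.54 and 1.77 without liver control 1), and its heart call was lost without any 1 of the 6 heart arrays except allograft 2 (adjusted p = 0.0522 to 0.113). Ttk, the kinase Mps1 that starts the checkpoint, was not well above background in any liver control. It was called on both days in the liver, at least 1.05-fold higher on day 5 (adjusted p = 0.00138), and in the heart its 0.87 ± 0.44 was not called. On day 8 Ttk was well above background on 2 of 3 arrays. Its day 8 mean of 3.81 lay under the level used to bound the controls. No fold can be given for that day, and its call rests on dim controls.

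Bub1, a kinase that brings checkpoint proteins to the kinetochore, gave different results from its 2 probes. Its brighter probe measured 7.92, 8.07 and 7.89 in heart controls and 9.99, 10.41 and 10.00 in heart allografts. These were well apart, by 2.18 ± 0.32 (adjusted p = 4.30e-04). In the liver that probe gave 9.64, 9.34 and 10.19 in controls, 10.51, 10.48 and 9.37 on day 5 and 9.58, 9.72 and 10.40 on day 8. The liver groups overlapped, with 0.39 ± 0.32 (adjusted p = 0.456) and 0.17 ± 0.32 (adjusted p = 0.783). The dimmer probe, named for another transcript of the same gene, gave 7.34, 6.84 and 7.69 in heart controls and 7.64, 7.35 and 8.22 in heart allografts, which overlapped. In the liver it gave 1.40, 4.12 and 2.99 in controls, where it was not well above background, 6.85, 6.86 and 7.83 on day 5 and 5.86, 6.07 and 6.30 on day 8. By this probe Bub1 was called higher in the liver, with fitted differences of 4.34 on day 5 and 3.24 on day 8 that rest on the dim controls, and was not called in the heart, at 0.45. Which of the probes follows the Bub1 transcripts was not tested.

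**Figure D3:**
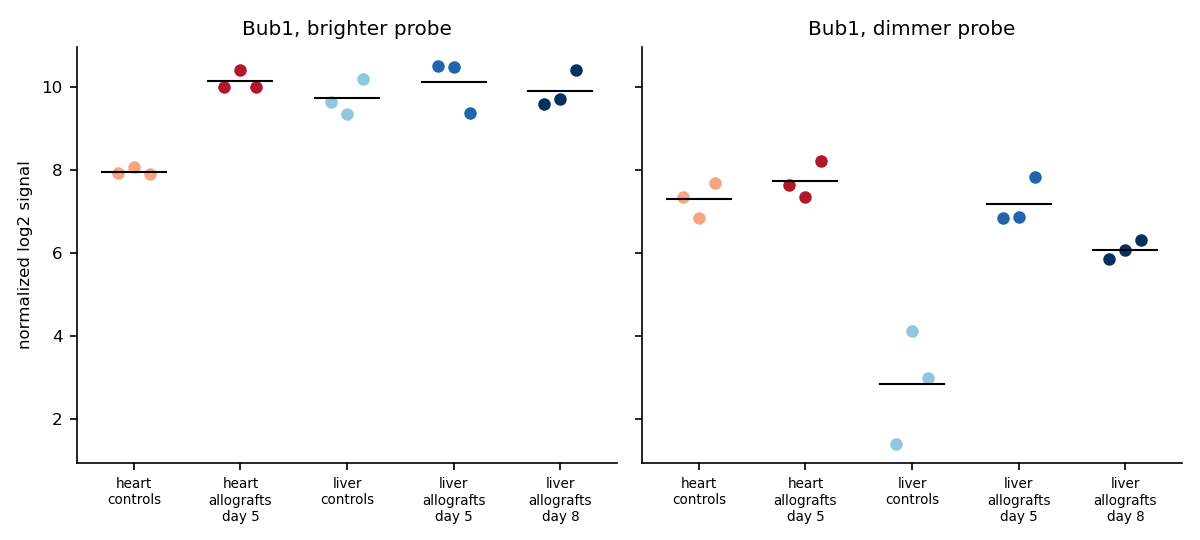
Normalized log2 signal of the brighter and the dimmer probe of Bub1 on each array (points; line, mean of 3) in the 5 groups. The brighter probe is lowest in heart controls, at 7.89 to 8.07, and the dimmer probe in liver controls, at 1.40 to 4.12.

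All 4 genes of the anaphase switch were called higher in the heart and in the day 5 liver, and 3 of 4 in the liver on day 8. Pttg1 encodes securin, the inhibitor of separase. Its log2 signals were 11.65, 11.15 and 11.85 in heart controls and 12.43, 12.71 and 12.62 in allografts. In the liver they were 10.74, 10.40 and 10.19 in controls, 11.73, 11.84 and 12.33 on day 5 and 10.88, 11.03 and 11.70 on day 8. There was no overlap with controls in any of the 3 comparisons. The differences were 1.03 ± 0.26 in the heart (adjusted p = 0.00996) and 1.52 ± 0.26 in the day 5 liver (adjusted p = 0.00212), while 0.76 ± 0.26 on day 8 was not called (adjusted p = 0.0801). Cdc20, the activator that turns the anaphase-promoting complex on its mitotic targets, was at 9.90, 9.07 and 10.05 in heart controls and 11.47, 11.61 and 12.17 in allografts. It was at 9.25, 9.27 and 8.80 in liver controls, 11.04, 11.12 and 11.38 on day 5 and 10.14, 10.28 and 11.40 on day 8. The allografts lay above the controls throughout, and heart and day 5 liver differed from their controls by nearly the same amount, 2.07 ± 0.35 (adjusted p = 8.93e-04) and 2.07 ± 0.35 (adjusted p = 0.00198), with 1.50 ± 0.35 on day 8 (adjusted p = 0.0157). Ube2c, the ubiquitin-conjugating enzyme of that complex, differed by 1.25 ± 0.26, 2.47 ± 0.26 and 1.81 ± 0.26. Espl1, separase, the protease that cuts cohesin, differed by 1.94 ± 0.20 in the heart; it was not well above background in any liver control, and was at least 4.88-fold higher on day 5 (adjusted p = 1.47e-05) and at least 3.26-fold higher on day 8 (adjusted p = 1.08e-04). Both were called in all 3 comparisons.

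**Figure D4:**
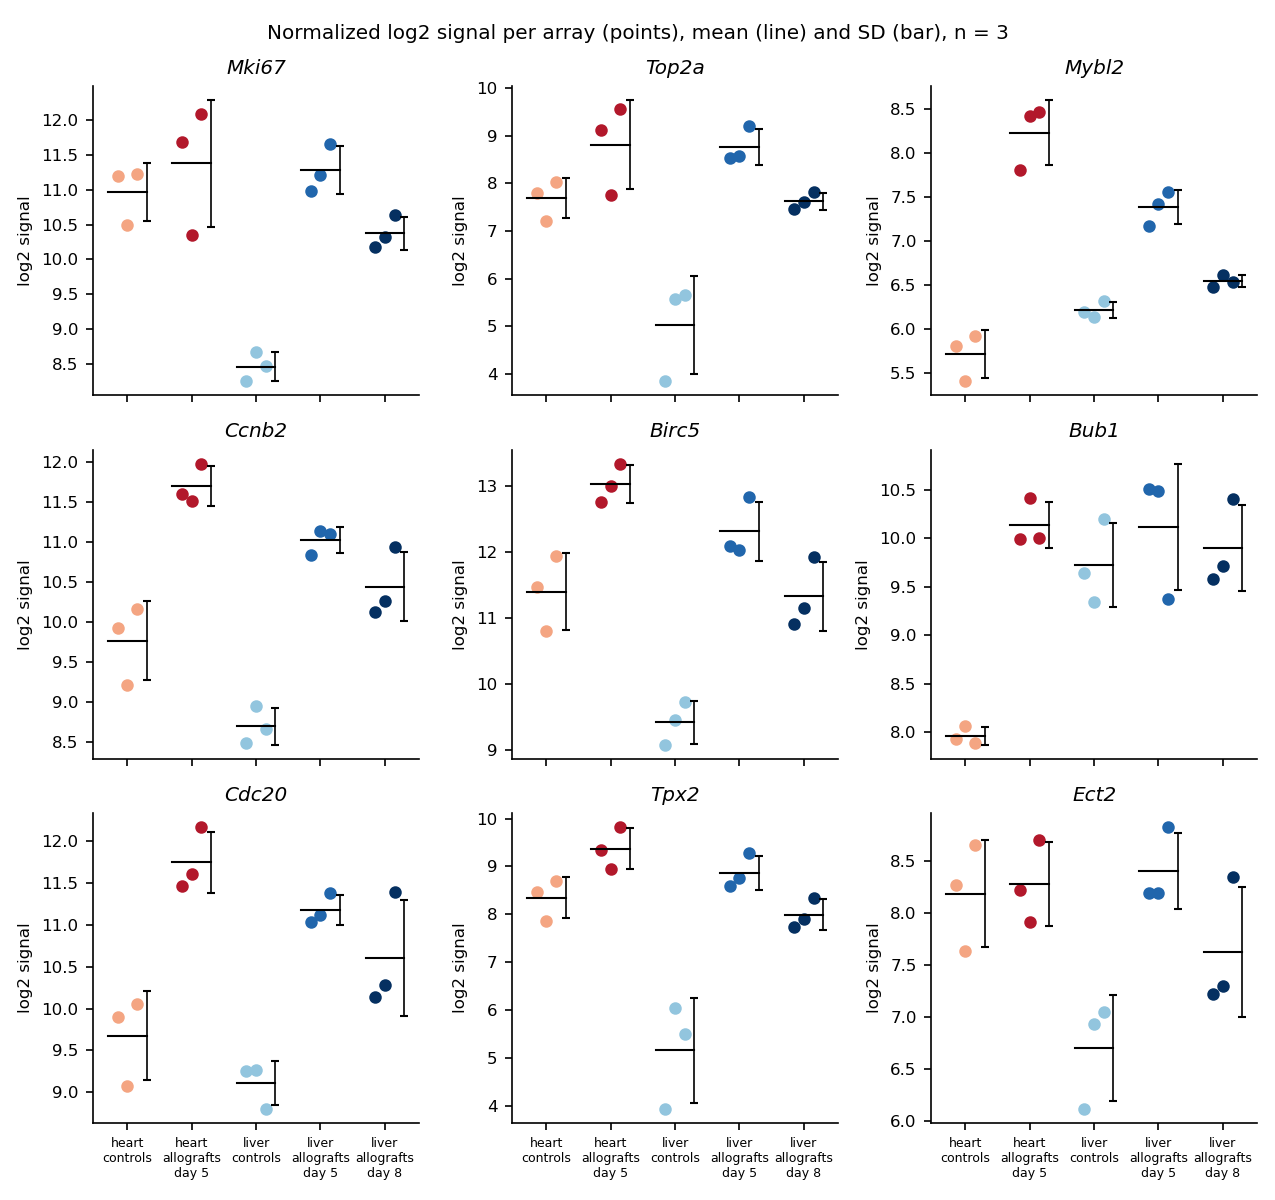
Normalized log2 signal of 9 genes on each array (points), with the mean (line) and SD (bar) of the 3 arrays of a group; the vertical scale differs between genes. Top2a shows 1 heart allograft among the controls and Mki67 shows 1 below them, Mybl2 and Cdc20 show heart allografts apart from heart controls, and the Ect2 signals of heart allografts and heart controls overlap.

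Spindle genes were called in the liver and mostly not in the heart: 1 of 5 in the heart, 5 of 5 on day 5 and 4 of 5 on day 8 in the liver. Tpx2, which nucleates spindle microtubules and activates Aurora A, was at 3.95, 6.04 and 5.50 in liver controls, 8.59, 8.76 and 9.27 on day 5 and 7.74, 7.91 and 8.35 on day 8. The groups were far apart, by 3.71 ± 0.46 (adjusted p = 2.67e-04) and 2.83 ± 0.46 (adjusted p = 0.00189), or 3.10 and 2.22 without liver control 1. In the heart it was at 8.48, 7.87 and 8.70 in controls and 9.34, 8.95 and 9.82 in allografts. All allografts were above all controls, and the difference of 1.02 ± 0.46 was not called (adjusted p = 0.115). Nusap1, a microtubule bundler around chromosomes, was at 8.27, 7.74 and 8.60 in heart controls and 8.83, 8.76 and 9.23 in allografts. Again the groups did not overlap, and 0.74 ± 0.34 was not called (adjusted p = 0.122). Liver values of Nusap1 were 5.05, 6.13 and 5.32 in controls, 8.54, 8.52 and 9.53 on day 5 and 7.59, 7.80 and 7.97 on day 8. These differed by 3.36 ± 0.34 (adjusted p = 6.06e-05) and 2.29 ± 0.34 (adjusted p = 0.00103).

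Kif2c, a kinesin that takes microtubules apart at the kinetochore, was the spindle gene called in the heart (1.51 ± 0.34), beside 2.32 ± 0.34 and 1.60 ± 0.34 in the liver. Kif11, the motor Eg5 that pushes the spindle poles apart, differed by 0.30 ± 0.53 in the heart and was not called there; in the liver, where no control was well above background, it was at least 3.47-fold higher on day 5 (adjusted p = 0.0011) and at least 1.79-fold higher on day 8 (adjusted p = 0.00901). A second probe of Kif11, like that of Cdk1, was well above background on 0 of 15 arrays. Hmmr, a hyaluronan receptor that also binds the spindle, was called on day 5 (2.75 ± 0.53) and not in the heart (0.89 ± 0.53) or on day 8 (1.70 ± 0.53, adjusted p = 0.0587). Kif2c and this probe of Hmmr were each well above background on 1 of 3 liver controls, so their fitted liver differences are not exact. Without liver control 2 the day 8 difference of Hmmr was 2.01 (adjusted p = 0.0499). A second, dimmer probe of Hmmr, well above background on 12 of 15 arrays, was called on both days in the liver. Its fitted differences were 3.47 on day 5 and 3.28 on day 8 (adjusted p = 4.36e-05), resting on dim controls at 1.33 to 1.37. In the heart that probe was not called, at 0.26.

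Of the 4 central spindle and cytokinesis genes with a probe, 0 were called in the heart, where limma's test gave 0 at an unadjusted p under 0.05 too, and 4 on day 5 and 2 on day 8 in the liver. Kif20a, a kinesin of the central spindle, was at 9.76, 9.23 and 10.15 in heart controls and 10.33, 9.94 and 10.88 in allografts. The groups overlapped through allograft 2, with a difference of 0.67 ± 0.36 (adjusted p = 0.196). Liver controls were at 6.79, 7.72 and 7.42, day 5 allografts at 9.73, 9.50 and 10.07 and day 8 allografts at 8.73, 8.87 and 9.84. They did not overlap, and differed by 2.45 ± 0.36 (adjusted p = 9.48e-04) and 1.83 ± 0.36 (adjusted p = 0.00691). Ect2, which activates RhoA to build the cleavage ring, was at 8.27, 7.64 and 8.65 in heart controls and 8.22, 7.91 and 8.71 in allografts. These ranges overlapped, with 0.09 ± 0.38 between them (adjusted p = 0.914), a value whose sign turned under 5 alternatives. In the liver Ect2 was at 6.12, 6.94 and 7.06 in controls, 8.20, 8.20 and 8.83 on day 5 and 7.23, 7.31 and 8.35 on day 8. Both liver groups were above the controls, and 1.70 ± 0.38 was called (adjusted p = 0.0109) while 0.92 ± 0.38 was not (adjusted p = 0.144). Anln, anillin, the scaffold of the cleavage ring, differed by -0.37 ± 0.34 in the heart and was not called; no liver control was well above background, and it was called on both days, at least 1.35-fold higher on day 5 (adjusted p = 6.38e-04). On day 8 the mean of Anln, 4.18, lay under the level used to bound the controls. No fold can be given for that day, and its call rests on dim controls. A second probe of Anln, well above background on 6 of 15 arrays, was not called in any comparison (0.38 on day 5 and -0.11 on day 8). Kif23, the kinesin of the centralspindlin complex, was called on day 5 (2.99 ± 0.64) and not in the heart (0.94 ± 0.64) or on day 8 (1.75 ± 0.64). Without liver control 1 the day 5 and day 8 values of Kif23 were 1.98 and 0.73, and it was called on day 8 without liver control 2 (2.28, adjusted p = 0.0498) or 3 (2.25, adjusted p = 0.042).

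Between the organs, most of the genes were further apart in controls than in day 5 allografts. All 3 heart controls lay above all 3 liver controls in 29 of the 34 genes (30.7% of all probes), all below in 3 (35.7%), and the median difference was 2.03 on the log2 scale. The 3 lower genes were Mybl2, Nek2 and Bub1 by its brighter probe. Between the day 5 allografts the median difference of heart minus liver was 0.47, with all heart arrays above all liver arrays in 13 genes (24.7% of probes) and below in 0 (18.2%). Mki67 shows the pattern, with a mean of 10.97 ± 0.41 (SD, n = 3) in heart controls against 8.46 ± 0.21 in liver controls and 11.38 ± 0.91 in heart allografts against 11.28 ± 0.34 in day 5 liver allografts. With scaling to the 75th percentile in place of quantile normalization the counts were 29 of 34 for the controls and 9 of 34 for the allografts, while the median of all probes moved to -0.75 in the controls; with normexp background correction the median difference of the genes in the controls was 1.06. In heart controls all 34 genes were well above background on every array. Neutrophil marker signal, summed over 5 genes, was 34636 to 55299 in heart controls and 3298 to 10030 in liver controls, and macrophage marker signal, over 7 genes, 61700 to 82456 and 5499 to 14596; their part in the organ difference was not tested.

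Whether the heart difference and the day 5 liver difference of a gene were unequal was tested as an interaction in the same fit. It was called for 15 of the 34 genes (18% of all probes). In 13 genes the heart difference was the smaller, as it was called in 9.48% of probes: Mki67, Top2a, Ccna2, Aurkb, Cenpa, Cenpe, Cenpf, Ube2c, Kif11, Tpx2, Nusap1, Kif20a and Anln, by 1.13 (Cenpa) to 3.22 (Kif11) on the log2 scale. In 2 genes it was the larger (8.53% of probes), Mybl2 by 1.36 and Bub1 by 1.78, the latter by its brighter probe. For Cdc20 the interaction was 0.0037 ± 0.49 (SE). The count was 9 without heart control 1 and without day 5 liver allograft 3, and 9 with slide as a random block. Donor strain, recipient strain and the kind of operation differ with the organ and cannot be told apart from it.

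From day 5 to day 8 in the liver, 0 of the 34 genes passed the test, by limma or by the methods' t-test after Benjamini-Hochberg adjustment, and limma called 0.0293% of all probes (0.0219% higher and 0.00732% lower on day 8). All 34 genes had a lower mean on day 8, by 0.22 to 1.24 with a median of 0.77 lower, where 20369 of the 41003 probes had a lower mean. In 21 genes all 3 day 8 arrays lay below all 3 day 5 arrays (10.4% of probes), and in 0 above (9.3%). At an unadjusted p under 0.05 limma's test gave 13 of the 34 genes, and the methods' t-test 17. Kif23 (-1.24 ± 0.64) and Aurkb (-1.21 ± 0.49) had the largest differences and Nek2 (-0.22 ± 0.29) the smallest. Day 8 allograft 3 was the highest of its group in 32 genes, and without it 1 gene was called, Cenpa (-1.17, adjusted p = 0.0431). No slide held both day 5 and day 8 liver allografts, so slide and day cannot be told apart. A single slide held 2 day 8 and 2 control arrays. Between these, all 34 genes were higher in the allografts, with a median of 1.76 against 1.86 over all arrays, and with so few arrays 0 probes were called.

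Genes outside the 34 that serve the same process were counted from 4 further lists. Of 59 tested, 23 were called higher in the heart, 47 in the day 5 liver and 39 in the day 8 liver, with median differences of 0.87, 2.36 and 1.55, and 1 was called lower, in the day 5 liver. Over all probes 13.3%, 8.12% and 7.05% were called higher in these comparisons, and 15.3%, 7.01% and 4.64% lower. Of 7 condensin genes, which fold mitotic chromosomes, 3, 6 and 4 were called higher in these comparisons; Ncapd2 differed by 1.22 ± 0.27 in the heart and 1.91 ± 0.27 in the day 5 liver. Of 18 kinetochore and passenger genes, 6, 12 and 12 were called higher. Cdca8, borealin, differed by 2.33 ± 0.30 in the heart and 2.48 ± 0.30 in the day 5 liver, and the gene called lower was Mad1l1, a partner of Mad2 (-0.56 ± 0.17, adjusted p = 0.0446). This call of Mad1l1 was lost without any 1 of the day 5 allografts, without liver control 1 or 2, and with 75th percentile scaling, the replicate block or slide as a random block, among other alternatives. Of 17 kinesin, spindle and cytokinesis genes, 7, 16 and 14 were called higher; Plk4, the kinase of centriole duplication, differed by 2.78 ± 0.42 in the heart, and Kif18b, a kinesin at microtubule ends, by 3.92 ± 0.37 in the day 5 liver. Of 17 tested kinase, cyclin and anaphase-promoting complex regulators, 7, 13 and 9 were called higher, with Cdca5, sororin, at 2.39 ± 0.29, 2.61 ± 0.29 and 1.96 ± 0.29.

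The steps before mitosis were read the same way. Of 14 S phase genes, 10 were called higher in the heart, 11 in the day 5 liver and 8 in the day 8 liver; Mcm7, of the replicative helicase, differed by 1.57 ± 0.25 in the heart and Cdc6, which loads that helicase, by 3.05 ± 0.30 in the day 5 liver. Of 10 G1 cyclins, kinases and E2F genes, 5, 2 and 0 were called, with Ccne1, cyclin E1, at 3.10 ± 0.41 in the heart and Cdk2, its kinase, at 2.31 ± 0.45 in the day 5 liver. On day 8, 1 of those 10 had an unadjusted p under 0.05 in limma's test. Of 15 inhibitor and quiescence genes, 2 were called higher and 2 lower in the heart, 4 and 2 in the day 5 liver and 3 and 0 in the day 8 liver. Over all probes the shares called higher and lower were 13.3% and 15.3% in the heart, 8.12% and 7.01% in the day 5 liver and 7.05% and 4.64% in the day 8 liver. Cdkn1c, the inhibitor p57, differed by -3.05 ± 0.33 in the heart and -1.12 ± 0.33 in the day 5 liver, Gas1 by -2.71 ± 0.38 and -1.41 ± 0.38, and Cdkn1a, the inhibitor p21, by 2.08 ± 0.33 in the day 5 and 2.45 ± 0.33 in the day 8 liver.

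Markers of other cells moved beside these genes. The counts stand beside 13.3%, 8.12% and 7.05% of all probes called higher in the heart, day 5 liver and day 8 liver. The shares called lower were 15.3%, 7.01% and 4.64%. Of 9 T cell markers, 9 were called higher in the heart and 7 in the liver on each day, and of 5 NK cell markers 5, 3 and 5. Of 7 macrophage and monocyte markers 2, 4 and 5 were called higher, with median differences of 0.12, 1.68 and 2.15. Their summed signal was 61700 to 82456 in heart controls and 144435 to 179245 in heart allografts, and in the liver 5499 to 14596 in controls, 37270 to 41540 on day 5 and 44699 to 47430 on day 8. Of 6 erythroid precursor markers 0 were called higher in any of the 3 comparisons; limma's test gave 3, 2 and 1 of them, in either direction, at an unadjusted p under 0.05. In the heart allografts 5 of 6 endothelial, 4 of 6 fibroblast, 3 of 10 cardiomyocyte, 3 of 5 neutrophil and 3 of 5 bile duct markers were called lower. The bile duct genes summed to 40879 to 64589 in heart controls and 5376 to 13117 in liver controls. Their signal in the heart is thus no measure of bile duct cells. The summed signal of the endothelial genes was 20658 to 28739 in heart controls and 6347 to 7042 in heart allografts. That of the fibroblast genes was 333620 to 512521 and 130259 to 181526. No hepatocyte marker of 7 was called in the liver on either day, where at an unadjusted p under 0.05 limma's test gave 1 on day 5 and 1 on day 8. From day 5 to day 8 no T cell marker was called, with a median difference of -0.33. The part of these cells in the values of the mitosis genes was not tested.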

How the data were processed

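Total RNA of 15 mouse tissue samples was hybridised to Agilent 1-colour arrays, and the files were deposited by the authors as Feature Extraction output (version 10.5.1.1 per the file headers), whose processed signal is a background-corrected Cy3 intensity. From these intensities, spots with an outlier flag were dropped, spots of a probe were averaged, log2 was taken and the 15 arrays were quantile normalized. The study's methods took natural logs, which changes the scale and not the order. A single limma fit of the 5 groups (limma 3.58.1, R 4.3.3) gave moderated p-values, adjusted by the Benjamini-Hochberg method over the 41003 probes with a value on every array and called at 0.05. With 3 arrays against 3, an exact permutation test of 1 gene cannot give a p under 0.1. No spot was saturated, and precision is limited by having few arrays.

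Probes were named through the accession in the files and a RefSeq table (GRCm38.p6), which matched 26690 of 41174 probes (64.8%). Per gene the probe with the highest mean processed signal over the 15 arrays was read; 13 of the genes had several, which were also read by themselves. A fold against a group in which no array was well above background is a bound, set at the dimmest normalized signal that any probe well above background had on each of its arrays. Values on every array are given for the 2 genes of each role with the highest mean signal. From each list of further genes at most 2 per direction and organ are named, those with the smallest p among the calls. The genes, lists and markers were chosen with earlier results of these data known. Promoter motifs were searched on both strands of the RefSeq windows, counting a gene once. The fit was tested on simulated data. Alternatives were other normalizations, background corrections, filters, tests and adjustments, slide as a random block, the replicate number as a block, and each array left out in turn.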

Additional observations from a re-analysis of the deposited data

Results flagged for a closer look

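For 15 genes the heart difference and the day 5 liver difference were unequal by the interaction in the same limma fit. The values here are heart difference minus liver difference on the log2 scale, with limma's adjusted p. The chromosome proteins were at -2.42 (Mki67, adjusted p = 0.0106) and -2.61 (Top2a, adjusted p = 0.0288). The kinetochore genes Cenpf and Cenpe were at -3.08 (adjusted p = 0.00469) and -2.02 (adjusted p = 0.0448), and the centromere histone Cenpa was at -1.13 (adjusted p = 0.0293). Aurkb was at -2.46 (adjusted p = 0.0304), Ccna2 at -1.77 (adjusted p = 0.0159) and Ube2c at -1.22 (adjusted p = 0.0417). The spindle genes Kif11, Tpx2 and Nusap1 were at -3.22 (adjusted p = 0.0135), -2.69 (adjusted p = 0.0151) and -2.62 (adjusted p = 0.00394). Kif20a and Anln, which act in cytokinesis, were at -1.78 (adjusted p = 0.0334) and -2.78 (adjusted p = 0.003). Only Mybl2 and Bub1 by its brighter probe had the larger difference in the heart among the 15, at 1.36 (adjusted p = 0.00665) and 1.78 (adjusted p = 0.0207). Aurkb, Kif11 and Anln were not well above background in any liver control, so that their liver differences, and these values, are not exact. Top2a and Tpx2 were well above background on 2 of 3 liver controls, which limits their values too. Heart and liver samples also differed in strain and operation, which cannot be told apart from the organ. They were on different slides too, except that day 5 liver allograft 3 shared the slide of the heart allografts.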

How the results depend on the processing

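Every called difference of the 34 genes kept its sign when their chosen probe was read, under all alternatives run. The count of genes called on day 8 in the liver moved from 27 to 10 with normalization and fit within the comparison, to 9 with the fit on its arrays alone and to 0 within the slide that held both groups, an alternative chosen after seeing the data with 2 arrays a group. The other mitosis genes gave 20, 16 and 0 there, and 28 on day 5 with the fit on its arrays alone. Of the 34 genes, 23 were called on day 5 in the liver with that fit. The count was also 23 with normalization and fit within the day 5 comparison. Under Bonferroni adjustment, 2 (Mybl2, Espl1), 5 (Ccna2, Cenpa, Ube2c, Espl1, Nusap1) and 1 (Espl1) genes were called in heart, day 5 and day 8 liver, 0 in the interaction, and 0, 5 and 0 of the other mitosis genes; the methods' standardized fold change gave 0, 5 (Mki67, Plk1, Aurkb, Birc5, Cenpe) and 0, with 0, 3 and 0 of the others. The methods' t-test after Benjamini-Hochberg adjustment gave 3 on day 5 (Mki67, Ccnb2, Espl1) and 3 on day 8 (Mki67, Ube2c, Espl1), with 2 and 1 of the others, and unadjusted 17 between day 8 and day 5. With slide as a random block 11 were called in the heart and 9 in the interaction. Scaling to the 75th percentile moved the median of all probes to 0.47 in the heart, -0.37 and -0.46 in the liver, while the medians of the genes were 1.10, 2.50 and 1.81. Leaving out 1 array gave 13 to 21 genes in the heart, 31 to 33 and 23 to 29 in the liver, 0 to 1 between day 8 and day 5 and 9 to 18 in the interaction. The cause of these shifts was not tested.

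Signs turned in values that were not called: Ect2 in the heart was -0.030 with normexp, -0.050 by standardized fold change, -0.0046 with slide as a block, and -0.18 to 0.33 with 1 array left out; Cenpf in the heart was 0.11 by standardized fold change and -0.44 to 0.36 with 1 array left out; Bub1 on day 8 was -0.078 to 0.41 with 1 array left out. Read by another probe, dimmer in each case, Anln on day 8 was -0.11, Cdk1 -0.12 on day 5 and -0.69 on day 8, and Kif11 -0.88 and -1.22. In windows of 100 bases, 0 promoters held the E2F letters. Replicate numbers did not pair the samples (correlations of deviations -0.123 to 0.16, with 1 of 30 pairs over 0.1, and 1 of 15 arrays correlating best with its own number); with the replicate number as a block, 18, 33 and 29 genes were called in the 3 comparisons with controls, 0 between day 8 and day 5 and 18 in the interaction. In 15 genes at least 1 liver control was not well above background, which limits their liver differences.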
